A study of Caenorhabditis elegans with 2 samples.

Results

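Within introns of protein-coding genes, 279 strong candidate binding regions of the transcription factor PAG-3 were found in late embryos of Caenorhabditis elegans, out of 21336 candidates deposited for the pooled replicates. They were chosen by the authors' signal value: the 2000 regions of largest pooled signal were taken, and a region was kept where its summit lay inside a protein-coding gene body. The summit had to lie outside every coding exon and untranslated region. It also had to lie outside the window from 1000 bp upstream to 200 bp downstream of any protein-coding transcript start. Of 446 intronic summits among the 2000, 65 within 100 bp of a tRNA, snoRNA or snRNA gene and 102 at the far right of chromosome V were left out by the rule. The comparison groups used below were the 4234 intronic candidates ranked beyond 2000 under the same rule of place (weaker intronic candidates), and the 660 promoter regions and 346 intergenic regions among the 2000 strongest.

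The data came from chromatin immunoprecipitation and sequencing (ChIP-seq) with an anti-GFP antibody on sonicated chromatin of whole hermaphrodite embryos of strain OP154, genotype unc-119(ed3) III; wgIs154, in 2 biological replicates. The transgene carries PAG-3 with a GFP-FLAG tag at its C-terminus, and the embryos were at the late stage, 4 hours after synchronization by egg bleaching, with age otherwise given as unknown. The series held 1 group, so no comparison between conditions existed. Both replicates carried the transgene, and no untagged control was analysed here. Read depth was unknown, and in whole embryos a region bound in few cells and one bound weakly in many cannot be told apart. Because the signal value chose the regions, differences in signal are descriptions, and no test was made.

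PAG-3 is a zinc-finger protein of the GFI family, which in vertebrates recognises sites with an AATC core and represses transcription. In the worm it is needed for several kinds of neuron to take on their fate, such as BDU and touch receptor neurons. Introns of this species are mostly short, and long introns near the start of a gene are known to hold enhancers and alternative promoters.

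The sequences below show what lay under the summits. Each is a run of 30 bases of the WBcel235 assembly (ce11), 5′ to 3′ on the strand given, with capitals marking a word that was searched on both strands in the window reaching 50 bp to each side of the summit. The first set gives examples of regions with GAGAGA, a word found more often at the strong intronic summits than beside them; stronger regions with the word are not all shown.
ldb-1, chrX:11031382-11031411, plus strand: tggctgggagagGAGAGAcaggcacccggc
mpk-1, chrIII:4223728-4223757, minus strand: gacatagccgacGAGAGAgatgagaccccc
daf-14, chrIV:10252558-10252587, minus strand: aatgggaaaaaaGAGAGAaaaagagagaga
ell-1, chrIV:4406292-4406321, minus strand: acgagagagagaGAGAGAggcaacgccgca
In ldb-1 the word lay in a GC-rich stretch, in daf-14 it lay between runs of A with a further run of alternating G and A beside it, and in ell-1 it was part of a longer alternating run. The second set shows GCGCGC, a palindrome that reads the same on both strands.
T28B11.1, chrV:10717025-10717054, plus strand: caaccctcccgcGCGCGCgagagccccgcg
daf-5, chrII:14040453-14040482, plus strand: cgccgggcgcccGCGCGCgtggatcgttga
mbl-1, chrX:16999797-16999826, plus strand: acttttgcgcgcGCGCGCcactcccctaag
The third set shows AATCAC, which holds the core recognised by GFI proteins of vertebrates.
ell-1, chrIV:4406227-4406256, minus strand: gcgccaccaagcAATCACgaaataaatcgg
Y56A3A.7, chrIII:11946600-11946629, minus strand: aaaatcgagaaaAATCACaattttccatta
K01F9.2, chrIII:8873271-8873300, plus strand: ctcaatgagcccAATCACgtcttcttcttt
Y62E10A.13, chrIV:13394923-13394952, minus strand: tcatcgaccagaAATCACctttctccgtcc
The last set shows 2 of the strongest regions whose windows held none of these words, centred on the summit, and Y70C5A.2 with GTTCGA in capitals, a word chosen after its values were seen.
F09A5.3, chrX:13145363-13145392, plus strand: acgtgaagcggcccgtcttattgtacgttt
Y111B2A.12, chrIII:12612645-12612674, plus strand: tacaactggtcactcgatgtctgcgtctcg
Y70C5A.2, chrV:16622903-16622932, minus strand: aatgactccgtgGTTCGAacccacgacccc

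The words fell into those more frequent at the summits of the strong intronic regions than in their flanks and those less frequent. GAGAGA was found at 55 of the 279 summits, or 19.7% (95% Wilson interval 15.5 to 24.8), against 35 of 558 flanking windows, or 6.27%, centred 500 bp to each side. At weaker intronic candidates it was found at 6.99% of 4234 summits and in 5.85% of the flanks. At other strong regions the word was found at 21.7% (18.7 to 25) of promoter summits, an interval that overlaps that of the intronic ones, and at 29.5% (24.9 to 34.5) of intergenic summits, a higher share. AGAGAG, which overlaps GAGAGA in any longer run, was found at 19.4% of the strong and 6.47% of the weaker intronic summits. Other words had higher shares at strong summits too, such as ACACAC with 13.6% and 4.94% and GGAGGA with 12.5% and 4.32%. GCGCGC was found at 7.89% of strong intronic summits and in 0.717% of their flanks, against 2.24% of weaker intronic summits.

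AATCAC was found at 8 of the 279 summits, or 2.87% (1.46 to 5.56), against 4.66% of their flanks, 3.99% of weaker intronic summits and 5.54% of the flanks of those. The share at strong intronic summits was therefore no higher than in the sequence beside them. The 8 regions lay in ell-1, sri-12, Y56A3A.7, K01F9.2, Y62E10A.13, srsx-25, vab-3 and C24B9.3, with pooled signal values from 83.2 in ell-1 to 53.9 in C24B9.3. Of these genes, vab-3 encodes the worm PAX6 protein and ell-1 an ELL-type elongation factor. AAATCA, a word that also holds the AATC core, was found at 3.94% of strong intronic summits, 13.1% of their flanks and 11.5% of weaker intronic summits. Several other words rich in A and T had lower shares at strong summits. TTTCAG, the usual end of a worm intron, was found at 5.73% of strong and 18.3% of weaker intronic summits, and TGATAA, a word read by GATA factors, at 1.79% and 6.38%. In windows of 45 to 55% GC alone, TTTCAG was found at 2.44% (0.833 to 6.93) of strong and 10.7% (8.86 to 12.8) of weaker summits. Strong summits also lay farther from the 3′ splice site, a median of 1339 bp against 442 bp, and the part of that distance was not tested. A run of 8 A was found at 3.58% of strong and 11.5% of weaker intronic summits. CACCTG, an E-box word, was found at 2.87% of strong and 3.52% of weaker intronic summits, and ATTGCG, a word of C/EBP-type sites, at 2.87% and 2.93%.

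Over all 2080 words of 6 bases, counted with their reverse complements, the share at strong minus weaker intronic summits followed the GC content of the word. The median difference was -9.85 percentage points for the 36 words with no G or C and 3.18 points for the 36 words made of G and C alone. When only windows of 45 to 55% GC were kept, GAGAGA was found in 29 of 123 strong and 107 of 967 weaker intronic windows, or 23.6% (16.9 to 31.8) and 11.1% (9.24 to 13.2). In the same windows GCGCGC was found in 4.88% of strong and 3.41% of weaker intronic windows, with overlapping intervals. AATCAC was found in 6 of the 123 strong windows, or 4.88% (2.25 to 10.2), and in 3.1% (2.18 to 4.39) of weaker ones. AAATCA went the other way, with 3.25% (1.27 to 8.06) of strong and 5.89% (4.58 to 7.56) of weaker windows. For both words the intervals overlapped. By intron length, GAGAGA was found at 3.57% of strong and 3.59% of weaker summits in introns under 1000 bp. It was found at 25.8% of strong and 8.33% of weaker summits in introns of 1000 to 5000 bp, and at 27% and 13.9% in introns of 5000 bp or more. The word's higher share at strong summits was thus seen in the 2 longer classes of intron, where the intervals did not overlap, and not in the short ones; the difference between the classes was not tested.

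The summits of the strong intronic regions stood out from their own surroundings in base composition. The GC content within 50 bp of the summit had a median of 49.5%, with quartiles of 44.1 and 55.4%, against 37.6% in the flanking windows. It was higher at the summit than in the flanks in 248 of 279 regions (88.9%), against 59.6% of weaker intronic candidates, whose medians were 39.6% at the summit and 36.6% in the flanks. Strong promoter and strong intergenic summits had the same median, 49.5%, so it was as high at strong regions outside introns. The difference from weaker candidates was also seen in every class of intron length: medians were 47.5% for strong and 37.6% for weaker summits in introns under 1000 bp, and 50.5% and 41.6% in introns of 5000 bp or more. GC content can also change how well a fragment is amplified and sequenced, and its part in the signal was not tested.

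**Figure D1:**
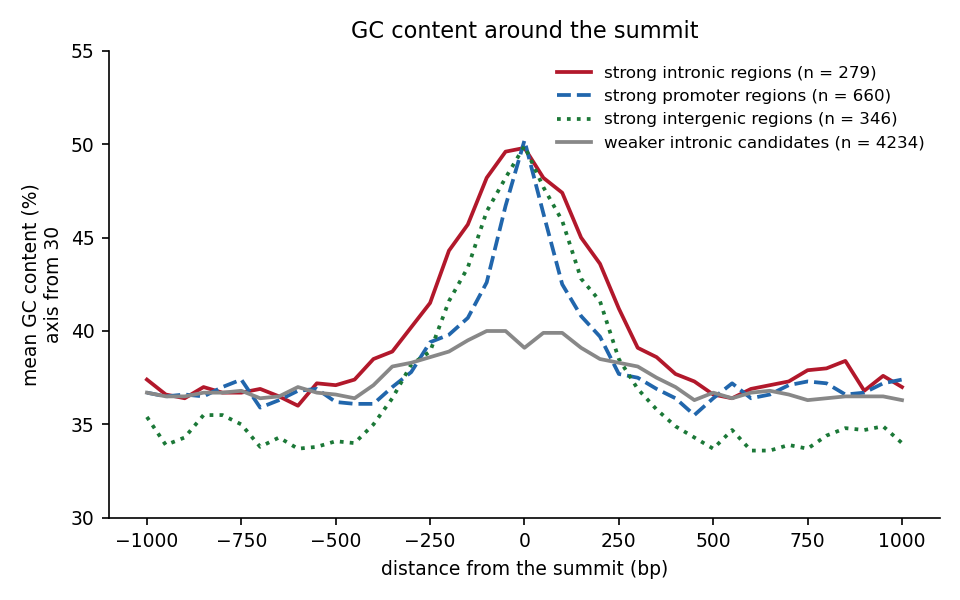
Mean GC content (%) in windows of 51 bp every 50 bp within 1000 bp of the summit, for strong intronic regions, strong promoter regions, strong intergenic regions and weaker intronic candidates; the vertical axis starts at 30%. At the summit the means were 49.8% for the strong intronic regions, 50.2% for promoter regions, 49.9% for intergenic regions and 39.1% for weaker intronic candidates, and the strong intronic curve returned to about 37% at 1000 bp.

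Most of the strong intronic regions were unique sequence. All 36-base words along the region occurred once in the 6 nuclear chromosomes in 241 of 279 regions (86.4%), against 76.3% of weaker intronic candidates. Under 50% of these words were unique in 4 regions (1.43%), in ell-1, hxk-2, W09G12.9 and F40G9.18, against 0.874% of weaker candidates. With the rule applied to the list of 1 replicate, the share of strong regions was 0.361% without replicate 1 and 0.699% without replicate 2. Over 50% of the region was masked as repeat or low-complexity sequence in the RefSeq genome in 14 strong regions (5.02%), against 23.9% of weaker ones. Of pairs of strong regions that do not overlap, 9 pairs among 10 regions shared a word of 25 bases. Among them were daf-14 with gei-4 and ZK1086.2 with srz-74, each pair on different chromosomes.

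The pooled signal value of the 279 regions ran from 52.7 to 204.7, with a median of 60.4. The deposited −log10 q ran from 0.765 to 2.61, with a median of 1.06 and quartiles of 0.91 and 1.36. Strong thus refers to the rank of the signal value, and no limit on q was set. The last intronic regions inside the limit of 2000 were in plx-2, with a signal of 52.76, C09F12.3, with 52.76, and ptb-1, with 52.71. The first outside it were in BE0003N10.1, with 52.65, snt-3, with 52.57, and Y53G8AM.8, with 52.56. The limit thus fell in a continuous run of values. The regions formed 272 separate loci, since 14 of them overlapped another of the set, and 278 had the common width of 450 bp.

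The strongest was in an intron of 2023 bp of ints-8, which encodes a subunit of the Integrator complex, at chrI:13463880-13464031. Its signal was 204.7 in the pooled list, 96.2 in replicate 1 and 109 in replicate 2. Its summit lay within 100 bp of rpr-1, the gene of the RNase P RNA, which is annotated as ncRNA and so was not left out with the tRNA, snoRNA and snRNA genes. A second region of ints-8, at chrI:13463959-13464408, overlapped the first and had a pooled signal of 54.7.

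Y70C5A.2 came next, at chrV:16622710-16623159, with 135 in the pooled list, 67.6 in replicate 1 and 67.7 in replicate 2. Its summit lay in a first intron of 254 bp, 276 bp from the nearest transcript start, and 804 bp from the nearest tRNA gene. The GTTCGA printed above lay 17 bp from this summit; the letters are part of the B box, the internal promoter element of tRNA genes. The word was found at 3.94% of all strong intronic summits, 3.58% of their flanks and 2.55% of weaker intronic summits.

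The intron of let-526, which encodes an ARID subunit of the SWI/SNF chromatin remodelling complex, held a region with signals of 118.9 in the pooled list, 62.2 in replicate 1 and 65.3 in replicate 2. For K10C3.4 the values were 118.1, 64.1 and 57.2. In both genes the replicates were close to each other. For nhr-3, a nuclear hormone receptor gene, they were 113.8 in the pooled list, 44.8 in replicate 1 and 74.2 in replicate 2. For hmt-1, an ABC transporter gene of heavy metal tolerance, they were 112.5, 41.5 and 69. For abts-1, an anion transporter gene, they were 110.6, 38.3 and 71.8. In these 3 genes replicate 2 had the higher value.

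Further regions among the strongest lay in genes of several kinds. ldb-1, which encodes the partner of LIM-homeodomain proteins, had 108.3 in the pooled list, 50.4 in replicate 1 and 56 in replicate 2, in an intron of 7606 bp. larp-1, an RNA-binding protein gene, had 104.7, 52.3 and 57.2, and tba-7, an alpha-tubulin gene, had 103.7, 50.8 and 52.9. These 3 had replicate values within a few units of each other. In inso-1 the values were 101.8 in the pooled list, 37.1 in replicate 1 and 66.6 in replicate 2. The region of mpk-1, the ERK-type MAP kinase gene, had 90.8, 51 and 46 and lay near the middle of an intron of 8247 bp. The region of ras-1, a Ras family gene, had 88.5, 47 and 39.1. The other regions among the 20 strongest were in F09A5.3, Y111B2A.12, pqn-41, Y39A1C.1, T28B11.1, W05H12.1 and Y41G9A.17, with pooled values from 113.6 in F09A5.3 to 91 in Y41G9A.17.

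**Figure D2:**
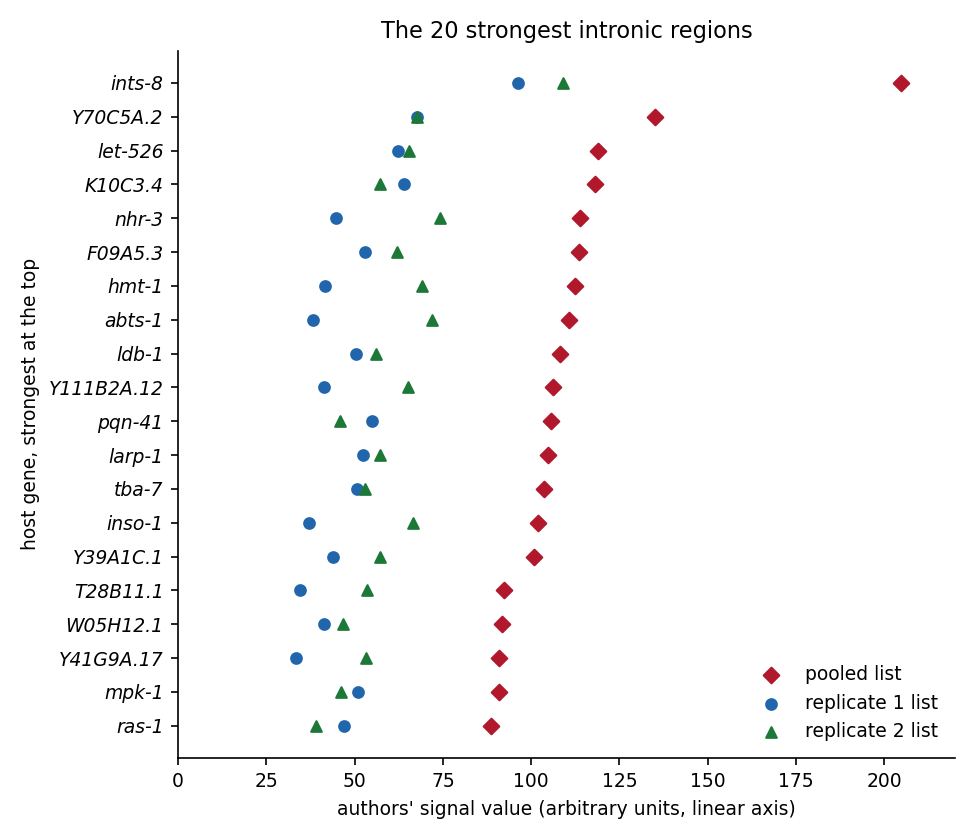
The authors' signal value (arbitrary units, linear axis from 0) of the 20 strongest intronic regions, named by host gene with the strongest at the top, in the pooled list (diamonds), replicate 1 (circles) and replicate 2 (triangles). Pooled values ran from 204.7 in ints-8 to 88.5 in ras-1 and lay near the sum of the replicate values.

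The pooled value was close to the sum of the replicate values. Among the 274 regions with a match in both replicate lists, the ratio of the pooled value to that sum had a median of 1.01 and lay within 10% of 1 in 227. Matching took the strongest candidate that overlapped by at least 1 bp. A region of M01F1.8, named here because it stood apart, had a pooled signal of 61.5 but was matched to values of 175 in replicate 1 and 238 in replicate 2. It overlapped the pooled region of rank 2, which is no member of the set, and those values belong to that neighbour. In all, 10 strong intronic regions overlapped a stronger region of the pooled list.

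Of the 279 regions, 276 overlapped a candidate of replicate 1 and 277 a candidate of replicate 2. A match among the 2000 strongest of both replicates was found for 87, or 31.2% (26 to 36.8). The same was true of 5.11% of all pooled candidates, and nothing is read from that contrast because the pooled signal chose the regions. A match among the 2000 strongest of replicate 1 was found for 161 and of replicate 2 for 173, and 32 (11.5%) had neither. The share with both was 44.7% for strong promoter regions and 35% for strong intergenic regions. The higher replicate value was a median of 1.34 times the lower, and over 2 times in 32 of 274 regions. The regions ranked beyond 5000 numbered 42 in replicate 1 and 28 in replicate 2. For example, the region of unc-43 at chrIV:10342055-10342504 had 44 in replicate 1 and 16 in replicate 2. That of cha-1 and unc-17 had 20.1 in replicate 1 and 36.7 in replicate 2. Over the 274 regions Spearman's rho between the replicate values was -0.0182, a description only, since the limit on the pooled value, near the sum of both, ties a low value in one to a high value in the other.

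**Figure D3:**
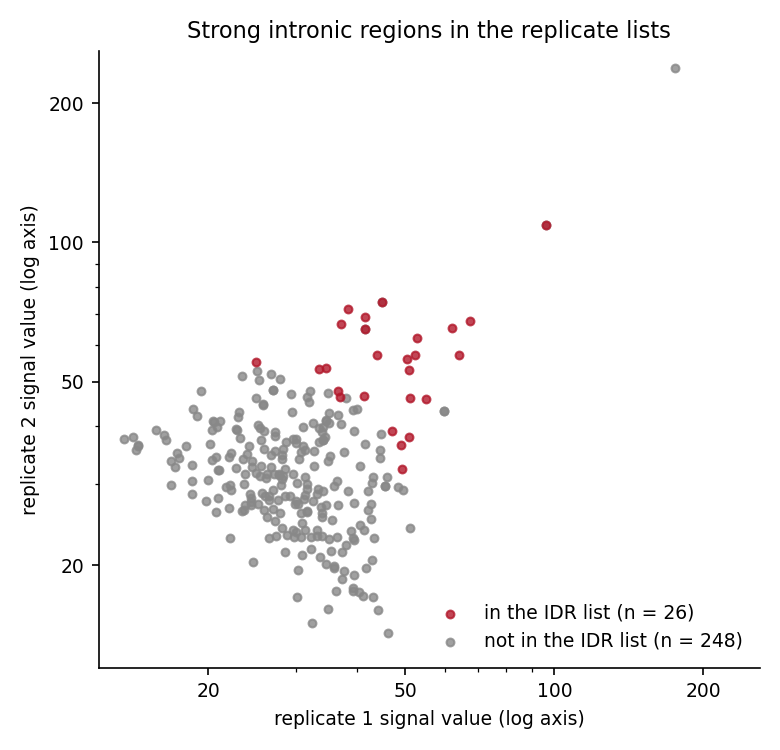
Signal value in replicate 1 (horizontal) and replicate 2 (vertical), both on log axes, of the 274 strong intronic regions matched in both lists; red points are the 26 in the IDR list and grey points the other 248. The grey points fill a band that slopes down to the right, as the limit on the pooled value sets, and the farthest grey point is the M01F1.8 region matched to its stronger neighbour; overlapping regions that share a match lie on the same point.

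The authors' list of peaks past a threshold of irreproducible discovery rate (IDR) held 26 of the 279 regions, or 9.32% (6.44 to 13.3), against 1.53% of all pooled candidates. That list was the 327 strongest pooled regions, so membership is a stricter limit on the same signal and not a separate measure. The 26 ran from ints-8 to Y45G5AM.6, which had a pooled signal of 84. The share was 20% for strong promoter regions and 10.7% for strong intergenic regions. Of the 26, 17 lay in a first intron.

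The introns that held the strong regions were long. Their median length was 3179 bp, against 990 bp for weaker intronic candidates, taking the longest intron of any coding transcript that held the summit. With the longest transcript of each gene alone, the median for strong regions was 2328 bp, and with the right end of V kept it was 1723 bp. These alternatives were computed for strong regions only. For each Mb of intron in which a summit could have met the rule, strong regions numbered 2.58 in introns under 200 bp, 7.52 from 200 to 1000 bp, 10.6 from 1000 to 5000 bp and 26.3 in introns of 5000 bp or more. The same numbers for weaker candidates were 156, 162, 150 and 205. The strong regions thus grew denser over each of the 4 classes, while the weaker ones varied less and were densest in the longest class. The GC content of the eligible sequence moved with intron length too, with 28.1, 31.3, 32.8 and 34.6% in the 4 classes, and its part in the densities was not tested. The whole region fitted in 1 intron for 212 of 277 strong regions (76.5%), against 49.5% of weaker ones. The summits of 2, in cdc-25.2 and tos-1, lay in no intron of a coding transcript.

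**Figure D4:**
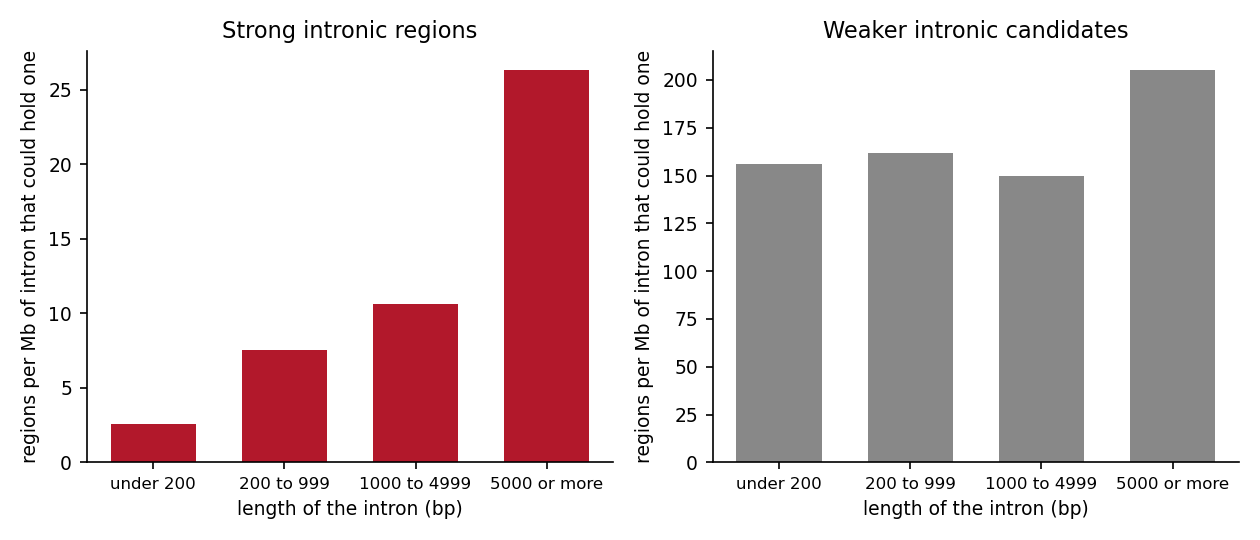
Number of regions per Mb of intron that could hold one, by length of the intron (bp), for the strong intronic regions (left) and the weaker intronic candidates (right); both axes start at 0 and have different scales. The strong regions ran from 2.58 per Mb in introns under 200 bp to 26.3 in introns of 5000 bp or more, against 156 and 205 for the weaker candidates.

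A first intron of some transcript held 122 of 277 strong regions, or 44% (38.3 to 49.9), against 31.5% of weaker candidates. In both groups, summits in long introns lay more often in a first intron of some transcript. The length is that of the longest intron at the summit, which need not be the first one. At pqn-41, for example, the intron of 10372 bp was number 14 of 21 in its transcript. In introns under 1000 bp the share was 19% for both strong and weaker regions. It was 41.9% and 33.8% in introns of 1000 to 5000 bp, and 67% and 61.5% in introns of 5000 bp or more, with overlapping intervals in each class. With the longest transcript of each gene alone, the share of strong regions was 31% (25.6 to 36.9). Strong summits lay a median of 1767 bp from the nearest transcript start and weaker ones 1639 bp. Strong summits within 500 bp of a start made up 7.53%, against 11% of weaker ones.

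Another annotated gene lay within 100 bp of 45 strong summits, or 16.1% (12.3 to 20.9), against 7.06% of weaker ones. Nearly all were of the class ncRNA, with 42 strong regions (15.1%) against 5.76% of weaker ones. No strong summit had a miRNA, piRNA or rRNA gene within that distance, of 279 summits, which allows a share of up to 1.36% (Wilson). The shares at weaker summits were also low, at 0.213%, 0.59% and 0%, so nothing particular to the strong regions is read from this. Examples with such an ncRNA were ints-8 with rpr-1, abts-1 with F52B5.9, and lin-14, the heterochronic transcription factor gene, with T25C12.7. The rule had left out summits within 100 bp of a tRNA, snoRNA or snRNA gene. Of the strong summits kept, 2 lay within 500 bp of such a gene and 7 within 1000 bp. The rule shaped these counts and no share of weaker candidates was taken, so nothing is read from them.

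Chromosome III held the most strong intronic regions. It had 70 of 279, or 25.1%, with 17.2% of the eligible intron sequence and 19.1% of the weaker candidates. This came to 15.7 strong regions per Mb, against 7.96 on V, 9.22 on I, 9.39 on IV, 10.8 on II and 11.2 on X. Chromosomes were split into 5 parts of equal length. From left to right, the parts of III held 14, 11, 3, 15 and 27 strong regions. The same parts held 206, 164, 98, 122 and 217 weaker candidates. The eligible sequence of each part is not given here, so no place within III is singled out. Over all chromosomes, the parts at both ends held 46.6% (40.8 to 52.5) of strong and 47.4% of weaker regions.

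The 279 regions lay in 242 host genes, which is 8.36% of the 2894 coding genes with any intronic candidate under the rule. Host genes were long, with a median of 9202 bp, against 4904 bp for genes with weaker candidates only. Among the 2894 genes, a strong intronic region was held by 4.53% of those under 5000 bp and 7.54% of those from 5000 to 10000 bp. From 10000 to 20000 bp the share was 16%, and at 20000 bp or more it was 23.3%. In 33 of the 242 host genes (13.6%, 9.88 to 18.5) a strong region also lay in a promoter window of the gene. The share was 6.03% (5.19 to 7) of genes with weaker candidates only. The windows of every transcript were counted, and neither gene length nor the number of transcript starts was taken into account.

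Several regions in one gene were found for 38 hosts. Y111B2A.12 and ppfr-1, which encodes a regulatory subunit of protein phosphatase 4, held 4 each. In Y111B2A.12 all lay in 1 intron, of 7076 bp, with pooled signals of 106.3, 64.8, 58.8 and 55.1, and those of 106.3 and 55.1 overlapped. In the region of 58.8 the replicates were far apart, at 46.2 in replicate 1 and 14.3 in replicate 2. In ppfr-1 the values were 77.5, 70.7, 68.5 and 65 in an intron of 10404 bp, and those of 70.7 and 68.5 overlapped. pqn-41, a glutamine-rich protein gene, held 3 regions of 105.5, 69.4 and 61.5. K01F9.2 held 3 of 72.2, 67 and 59.4, and those of 67 and 59.4 overlapped.

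The 34 hosts with 2 regions were of many kinds, and the genes named next were picked from them as examples, so no theme is read from them. These examples are long genes, from 19124 bp in lin-42 to 32440 bp in unc-73. Of coding genes with an intronic candidate, 16% of those from 10000 to 20000 bp held any strong intronic region. At 20000 bp or more, 23.3% did. No share by length was taken for genes with 2 regions. lin-14 held regions of 67.9 and 61.7, and lin-42, the gene related to Period, held 61.9 and 56. The nuclear receptor gene daf-12 held overlapping regions of 67.7 and 58.9, and the FOXO gene daf-16 held 64.1 and 60.3 in different introns. The first lin-14 region had 25.1 in replicate 1 and 52.8 in replicate 2, and the first lin-42 region 22.7 and 39.5, so replicate 2 was higher in both. unc-73, the Trio-type exchange factor gene that acts in axon guidance, held 64.9 and 58.6. unc-43, the CaM kinase II gene, held 61.9 and 60.4.

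The gene lists, chosen with earlier results of these data known, held 513 symbols in 8 groups, and 32 of their genes held a strong intronic region. Each share below is of the list's genes with any intronic candidate, to be read beside 8.36% for all such genes and beside gene length. Of the signalling receptor and pathway genes, 11 of 29 held a strong region (37.9%). The median length of the 29 was 9767 bp, near the limit between length classes with shares of 7.54% and 16%. The strongest was mpk-1, then daf-14, a Smad gene of the dauer TGF-beta pathway, with 85 in the pooled list, 48.9 in replicate 1 and 36.5 in replicate 2. pkc-1, a protein kinase C gene, had 76.8, 37 and 40.4. The remaining 8 were daf-5, daf-12, daf-16, unc-43, kin-1, pde-4, kin-2 and daf-2, with pooled values from 75.8 in daf-5 to 53.4 in daf-2; they encode a Ski-family partner of Smads, a nuclear receptor, FOXO, CaM kinase II, both subunits of protein kinase A, a phosphodiesterase and the insulin receptor.

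Of the axon guidance and cell adhesion genes, 9 of 51 held a strong region (17.6%). The median length of the 51 was 11794 bp, in a class where 16% of all genes with an intronic candidate held one. lad-2, an L1-type adhesion gene, had 74.8 in the pooled list, 31.1 in replicate 1 and 39.9 in replicate 2. unc-53, a neuron navigator gene, had 73.3, 35.8 and 29.7. lat-1, the latrophilin gene, had a stronger region with 67.9, 36.3 and 30.4. Of the RNA and chromatin regulator genes, with a median gene length of 8762 bp, 4 of 18 held one (22.2%). These were fox-1, mbl-1 and exc-7, the worm RBFOX, muscleblind and ELAV genes, with pooled signals of 73.2, 65.7 and 55.8, and ptb-1.

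The neuronal lists lay near the share of all genes with an intronic candidate when gene length is left aside. Median gene lengths were 8998 bp for synaptic genes and 6384 bp for identity factors. In that class of length, 7.54% of all genes with an intronic candidate held a strong region. For ion channel genes the median was 10796 bp, in a class where 16% did. Synaptic and neurotransmission genes had 4 of 34 (11.8%). cla-1, an active zone protein gene, had 60.6 in the pooled list. cha-1 and unc-17, the choline acetyltransferase and vesicular acetylcholine transporter genes that share a first exon, were counted through the same region of 60.1. ser-7, a serotonin receptor gene, had 53.1. Neuronal identity transcription factors had 2 of 24 (8.33%), with vab-3 at 59 and ast-1, an ETS factor gene of dopamine neurons, at 55. Ion channel genes had 2 of 25 (8%), with unc-79, an accessory subunit of the NALCN channel, at 57.2 and twk-40, a potassium channel gene, at 55.4. None of the 8 touch receptor and BDU neuron genes with an intronic candidate held a strong one, nor did any of the 22 muscle genes. With so few genes a share of 0 does not show an absence.

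**Figure D5:**
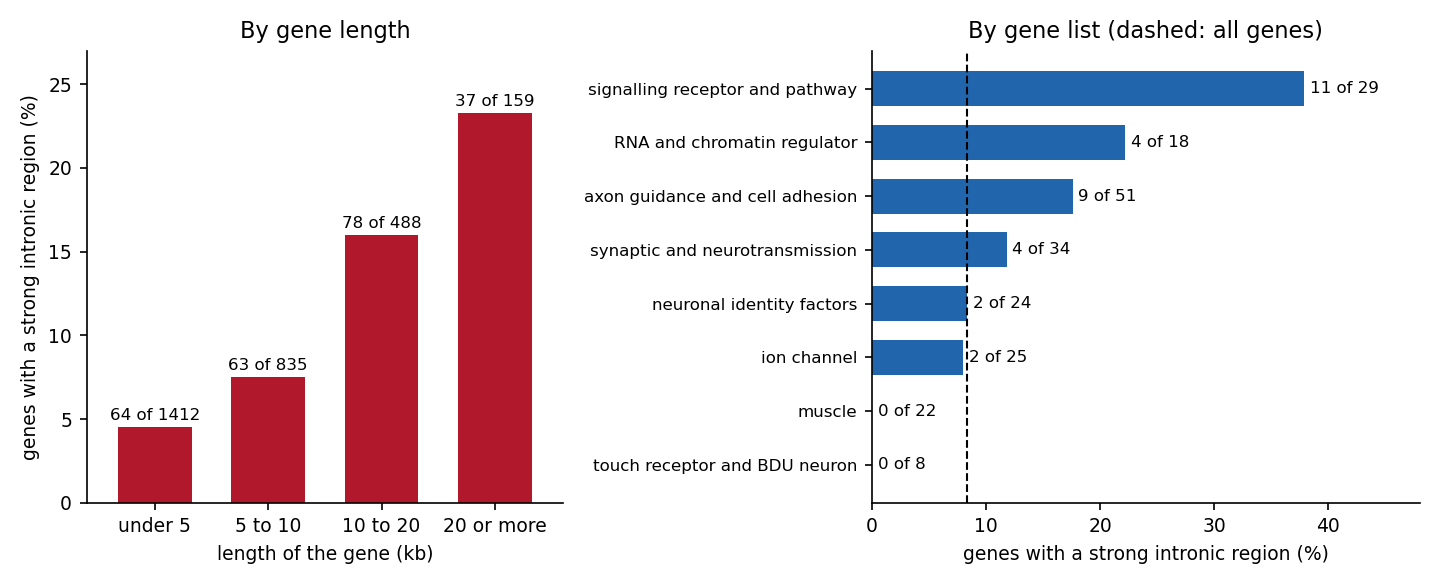
Share of genes with a strong intronic region (%) among coding genes with any intronic candidate, by gene length (left) and by gene list (right), with counts beside the bars; the dashed line is 8.36%, the share over all such genes. The share ran from 4.53% in genes under 5000 bp to 23.3% in genes of 20000 bp or more, and from 0 of 22 muscle genes to 11 of 29 signalling genes.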

How the data were processed

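The measurement was ChIP-seq of GFP-tagged PAG-3 in 1 group of 2 biological replicates. Candidate lists per replicate and for both pooled, and a list past an IDR threshold, were deposited by the authors, per the deposited file listings. The signal value and the −log10 q value of each region, and the summit offset (a count of bases, recorded as other), are the authors' own, as deposited. Caller, aligner, control reads, IDR threshold and depth are not given in the sources used here, so no precision from depth can be stated. Lists in build ce10 were not used.

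Summits were placed on the WBcel235 (ce11) annotation of Ensembl, with sequence and masking from RefSeq, over 19973 protein-coding genes. Regions of 2 lists were matched where they shared 1 bp or more, with the strongest partner kept. GC content and words were taken within 50 bp of the summit and in windows centred 500 bp to each side. Repeats were judged by words of 36 bases. Intervals of shares are 95% Wilson intervals. They treat regions as independent and cover counting error only, neither replicates nor peak calling. Shares and medians are descriptions with no test, as the signal chose the regions.

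The regions and gene lists were chosen with earlier results of these data known. Named items were the 20 strongest regions, hosts of 2 or more, up to 3 per gene list, 3 on each side of the limit, and regions with AATCAC. Others were named after their values were seen. Gene list symbols ceh-44, rab-27, nca-1, efn-1, ptp-4, hrp-1 and hrp-2 were not matched. Alternatives covered the limit, the rule of place, windows, matching and each replicate alone. The rule of place was tested on 1200 simulated regions and placed all 1200 right. Python 3.11.15, numpy 2.4.6, pandas 2.3.3, scipy 1.17.1 and matplotlib 3.10.9 were used.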

Additional observations from a re-analysis of the deposited data

How the results depend on the processing

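Of 156 values recomputed for 13 results under 17 alternatives, 27 moved out of the interval of the reported value (or over 1.5 times from a count), the others did not, and no difference changed sign. Leaving out regions that overlap a stronger one was added after seeing the data and moved none. No paired analysis was possible because the series held 1 group.

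With the 1000 strongest regions in place of 2000 there were 107 intronic regions in 99 host genes, 24.3% in the IDR list, 67.3% matched in the 2000 strongest of both replicates, a summit GC of 51.5%, 14.9 points above the flanks and 11.9 above weaker candidates, and 0% repeated. With the 3000 strongest there were 445 in 371 genes, with 5.84% in the IDR list and 20.7% matched in both. Summits within 100 bp of each other left 21.1% matched in both. The share in a first intron was 36.3% with a promoter window of 2000 bp upstream to 500 bp downstream, 50.7% where the whole region had to lie outside coding exons and UTRs, 37% with the right end of V kept and 31% with the longest transcript alone. Under the last 3 of these the median intron length was 4387, 1723 and 2328 bp. The whole-region rule also put summit GC 13.4 points above the flanks. With the right end of V kept, 60.9% lay in the end parts of the chromosomes. By construction, 0% had another gene nearby once such regions were left out. Windows of 25 bp each side held AATCAC in 1.08%, being shorter.

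With each replicate left out in turn, there were 277 and 286 regions, in 240 and 255 genes. Across both, 9.44 to 10.8% overlapped a region of the IDR list, 40.6 to 42.5% lay in a first intron, and median intron length was 2564 to 2655 bp. The share matched in both replicates was 29.4 to 31.8%. Here each region matches within its own list, so this share is only a match to the replicate left out. It is not the same measure as the 31.2% of the pooled list, and nothing is read from their closeness. Another gene was nearby for 14.3 to 14.8%. Summit GC was 47.5 to 48.5%, 9.9 to 10.9 points above the flanks and 8.91 to 10.9 above weaker candidates. AATCAC was found in 1.81 to 2.45%, 0.361 to 0.699% were repeated, and 47.2 to 50.2% lay in the end parts of the chromosomes. The cause of these shifts was not tested. Depth was unknown, so what it limits cannot be stated.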
